A study of Oryza sativa with 4 samples.

Results

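SWEET and SUT genes encode sugar carriers of plant cell membranes, and 9 of them gave a measurable signal in germinating rice coleoptiles, the sheath around the young shoot of a grass. They were found by name: the gene table held 18 genes named SWEET (14) or SUT (4) followed by a number, and 16 of these had a probe set assigned to that gene alone. A member had to reach an intensity of 32 on at least 1 array. This left SWEET1A, SWEET1B, SWEET2A, SWEET4, SWEET11, SWEET14, SUT1, SUT2 and SUT4, 9 of 17905 genes with a probe set of their own. SWEET14 was nearest to that limit from above with 52.1 on its brightest array, and SWEET2B nearest from below with 18.3.

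Transcripts of Oryza sativa cv Nipponbare were read on Affymetrix Rice Genome GeneChips, 1-colour arrays on which a set of short probes reads each transcript. Sterilized seeds germinated for 4 days at 28 °C in darkness, either in air (aerobic, the control, 2 arrays) or in an anaerobic chamber flushed with a mixture of N2 and H2 (anoxic, 2 arrays). Aerobic coleoptiles were dissected to take away the primary leaf, which anoxic seedlings do not form, so dissection went with the group and its part in the results was not tested. Whether the 2 arrays of a group stand for separate cultures is not stated, so p-values reflect only the spread between arrays, which may be technical. In whole coleoptiles fewer cells of a type and less RNA per cell cannot be told apart.

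SWEET proteins are uniporters that let sugars cross a membrane down their gradient. Members of the clade of SWEET1 and SWEET2 and of the clade of SWEET4 mainly carry hexoses, and those of the clade of SWEET11 to SWEET15 carry sucrose out of cells. SUT proteins couple the uptake of sucrose to the inward flow of protons, and so depend on a proton gradient that the cell maintains with ATP. In a germinating cereal grain, sugars released from the endosperm pass through the scutellum and the phloem to the growing shoot.

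The carriers went in opposite directions. In anoxic coleoptiles SWEET1A, SWEET1B and SWEET11 rose, SUT1 fell from a clear signal to background, and SWEET2A, SWEET4, SUT2 and SUT4 did not pass the test. A gene passed with an adjusted p under 0.05 (limma, Benjamini-Hochberg over 18826 probe sets) and a log2 change of at least 1. Of the 8 members tested, 3 rose and 1 fell, where 15.9% of all 12291 tested genes rose and 18.0% fell. SWEET14 was too dim on average to be tested. SWEET1B and SUT1 reached the mean level for testing through 1 group alone and thus had to differ. Of the other 6 tested members 2 rose and 0 fell by this rule (limma). SWEET2A and SUT4 were lower at adjusted p of 0.045 and 0.024 (limma) but missed the required size. The shares over all tested genes include genes that had to differ in the same way, so they do not match these 6. Arrays of the groups did not overlap for 4 members that were higher and 3 that were lower in anoxia, against 40.7% and 37.1% of all tested genes.

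**Figure D1:**
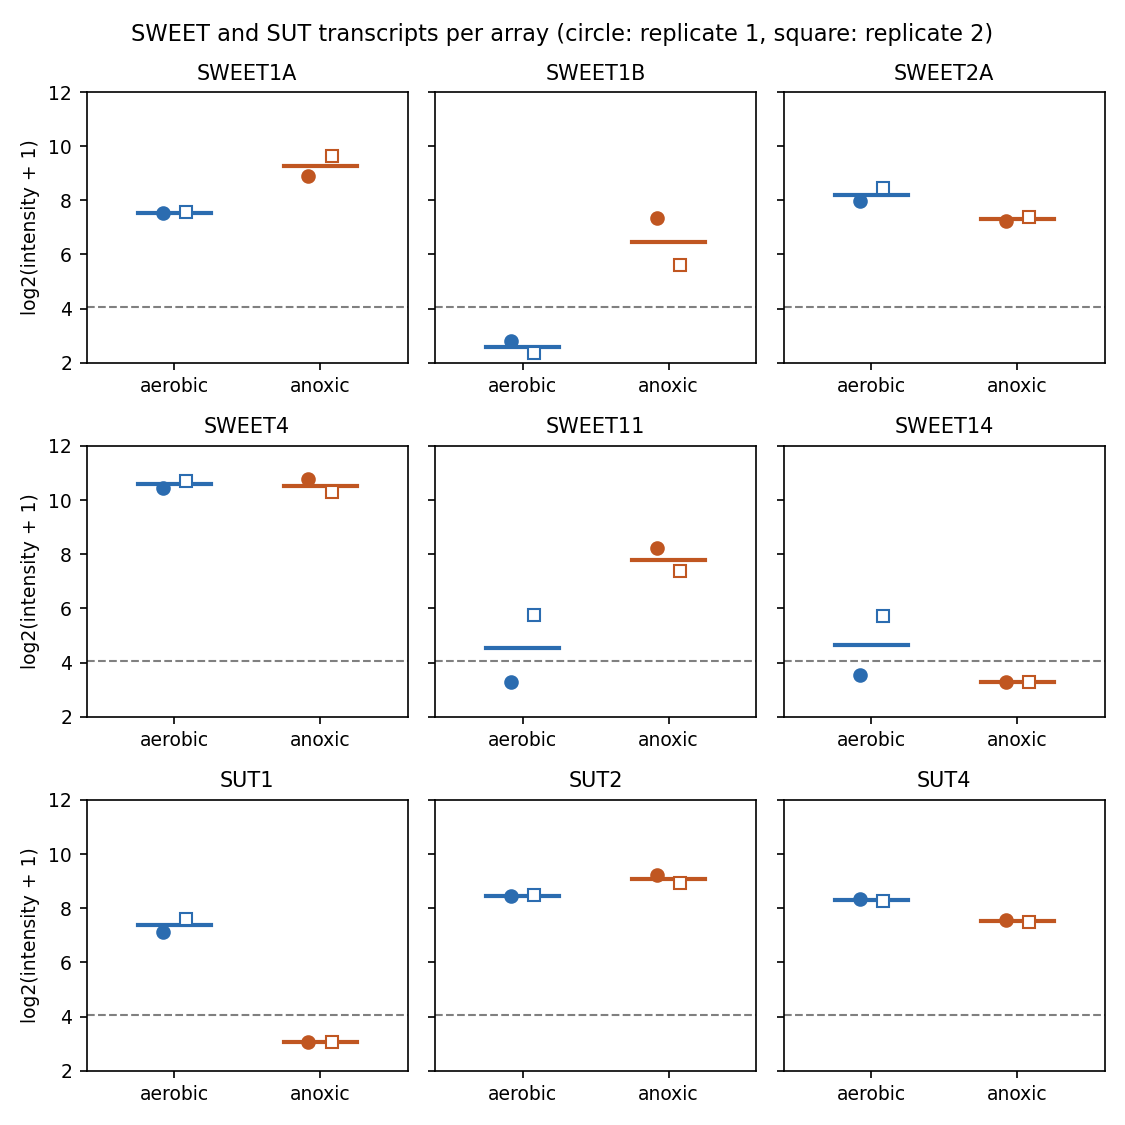
Level of each of the 9 members on each array, as log2(intensity + 1), with aerobic arrays in blue and anoxic arrays in orange, replicate 1 as a circle, replicate 2 as a square and the group mean as a bar. The dashed line at 4.05 is the highest group mean of any reporter probe set, taken as background. SUT1 falls below it in both anoxic arrays, SWEET1B lies below it in both aerobic arrays, and the aerobic arrays of SWEET11 and SWEET14 stand far apart.

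SWEET1B (LOC4338851) belongs to the hexose clade of SWEET1, whose Arabidopsis namesake carries glucose. Its intensity was 5.98 and 4.09 on the aerobic arrays and 161.9 and 47.3 on the anoxic arrays. Both aerobic values lay below 15.6, the highest group mean of any probe set for reporter sequences, which should find no target in these plants. The anoxic arrays were both above that level but 3.42-fold apart. On the log2(intensity + 1) scale, used for all changes here and one that understates the change of dim genes, SWEET1B went from 2.58 ± 0.32 to 6.47 ± 1.24 (SD, n = 2). SWEET1B reached the mean level for testing through its anoxic arrays alone and thus had to differ. The transcript was at least 5.34-fold higher in anoxia than the background level (fitted log2 difference 3.90 ± 0.64, SE; adjusted p = 0.0132). The bound came to 2.85-fold when anoxic replicate 1 was left out and to 10.0-fold when anoxic replicate 2 was. Leaving out aerobic replicate 1 or 2 ended the call, with log2 differences of 4.12 and 3.67. Calls over all probe sets also became fewer when 1 array was left out. The call was also lost with values under 16 set to 16 (adjusted p = 0.0512) and with no filter on level (adjusted p = 0.181). With no filter 2.99% of all probe sets were called, against 32.1% in the main fit.

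SWEET1A (LOC4324848), its closest relative by name, was already expressed in air and rose further. The aerobic arrays read 185.0 and 187.3, and the anoxic arrays 470.1 and 804.5. All anoxic values thus exceeded all aerobic ones, with the wider spread in anoxia. The log2 level went from 7.55 ± 0.01 to 9.27 ± 0.55 (SD, n = 2), a change of 1.72 ± 0.31 (SE; adjusted p = 0.0166, 95% interval 0.89 to 2.55), which is 3.29-fold. Without anoxic replicate 1 the change was 2.11 and without anoxic replicate 2 it was 1.33. Leaving out aerobic replicate 1 or 2 ended the call, though the change stayed at 1.71 and 1.73. Dropping the filter on level also ended it (adjusted p = 0.173), as it did most calls over all probe sets. A second probe set of SWEET1A stayed between 4.76 and 4.79 on all 4 arrays, so only 1 of its probe sets shows the rise.

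SWEET2A (LOC4326868), of the same clade, went the other way by a smaller amount. It read 248.1 and 351.1 in air and 148.2 and 167.4 in anoxia, with no overlap. The log2 difference was -0.90 ± 0.24 (SE; adjusted p = 0.045, 95% interval -1.55 to -0.25), short of the required size. Its aerobic arrays were 1.42-fold apart and its anoxic arrays 1.13-fold.

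SWEET4 (LOC4329093), a hexose carrier known in rice and maize for its role in grain filling, read 1409.6 and 1677.2 in air and 1768.5 and 1246.0 in anoxia. The groups overlapped, with the highest and the lowest value both in anoxia. The log2 difference was -0.05 ± 0.25 (SE; adjusted p = 0.891), and its 95% interval of -0.72 to 0.62 leaves room for a change of either sign below the required size.

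SWEET11 (LOC4346153) is a sucrose carrier of the export clade, known in rice for grain filling and as the susceptibility gene Xa13 of bacterial blight. It read 8.78 and 53.6 in air and 296.6 and 164.5 in anoxia. Both anoxic arrays were above both aerobic arrays, but aerobic replicate 1 lay below the reporter background and aerobic replicate 2 well above it. The log2 level went from 4.53 ± 1.75 to 7.79 ± 0.60 (SD, n = 2), a change of 3.26 ± 0.90 (SE; adjusted p = 0.0494, 95% interval 0.83 to 5.70). This is 9.60-fold, but 4.06-fold without aerobic replicate 1 (adjusted p = 0.109). Without aerobic replicate 2 the aerobic level was at background and the rise at least 13.4-fold (adjusted p = 0.0491). The call was lost without anoxic replicate 1 (adjusted p = 0.213), anoxic replicate 2 (adjusted p = 0.148), a pseudocount (adjusted p = 0.0524) or a filter (adjusted p = 0.393). The probe set's name ends in _s_at, Affymetrix's mark for probes that can match more than 1 transcript, so signal from a similar transcript was not separable here.

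SWEET14 (LOC4350572), of the same export clade and likewise a target of the blight bacterium, read 10.7 and 52.1 in air and 8.68 and 8.69 in anoxia. A signal above background was thus seen on aerobic replicate 2 alone. Its second probe set, named with the ending _x_at, had the same shape, with 7.58 and 31.4 in air and 6.35 and 5.77 in anoxia. Both were read on the same arrays, so the second is no separate measure of the samples. With a mean log2 level of 3.96 it missed the limit of 4 for testing. With no filter its log2 difference was -1.37 ± 0.96 (SE; adjusted p = 0.643).

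Both export clade members had a gap between the aerobic arrays. Aerobic replicate 2 exceeded aerobic replicate 1 by 2.48 log2 units for SWEET11 and by 2.18 for SWEET14. A gap like that of SWEET11 was rare: 99.8% of the tested probe sets had a smaller difference between the aerobic arrays. For SWEET14 the share was 99.6%, but SWEET14 was itself too dim to be tested. It also became a member through aerobic replicate 2 alone, with 52.1 against 10.7 on aerobic replicate 1. A wide gap thus followed from the rule that chose SWEET14, and its share cannot show that the gap was unusual. For SWEET1B the anoxic arrays differed by 1.75 log2 units, more than for 99.1% of tested probe sets. For SUT4 the arrays of each group differed by 0.06.

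**Figure D2:**
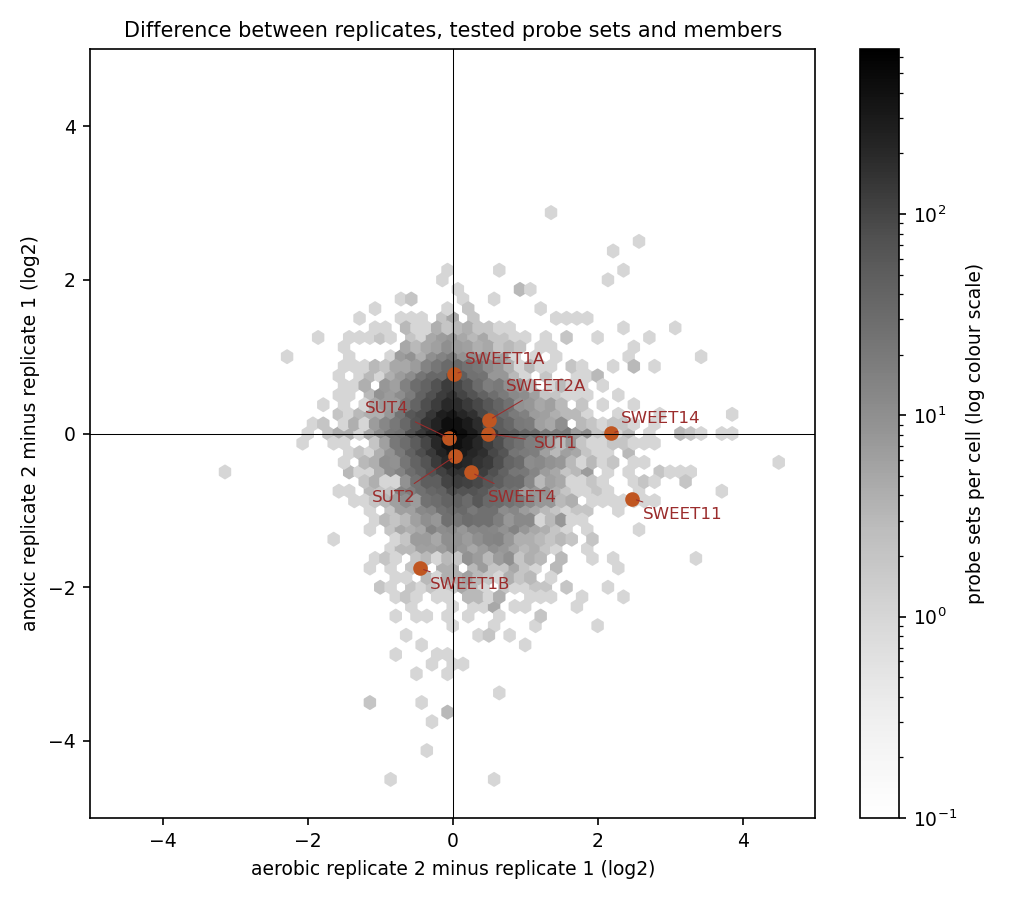
Replicate 2 minus replicate 1 on the log2 scale, aerobic arrays on the x axis and anoxic arrays on the y axis, for all 18826 tested probe sets (grey cells, darker for more probe sets) and the 9 members (orange points). SWEET11 and SWEET14 lie at the right with 2.48 and 2.18, SWEET1B lies in the lower, sparse part, and the other members lie in the dense centre.

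SUT1 (LOC4331775) encodes the plasma membrane sucrose-proton symporter that rice is known to express in the phloem and in germinating grain. It read 139.1 and 195.0 in air and 7.26 and 7.26 in anoxia. Both aerobic arrays were far above the reporter background of 15.6 and both anoxic arrays below it. SUT1 reached the mean level for testing through its aerobic arrays alone and thus had to differ. The log2 level went from 7.37 ± 0.34 to 3.05 ± 0.00 (SD, n = 2), and the transcript was at least 9.97-fold lower in anoxia (fitted log2 difference -4.33 ± 0.23, SE; adjusted p = 0.00137). Values as low as the anoxic ones vary little after GCRMA: the median absolute log2 difference between the anoxic arrays was 0.0055 among probe sets below the filter and 0.27 among those tested. Without 1 array the fitted difference of SUT1 ranged from -4.57 to -4.08. With an aerobic array left out, the gene's own spread came from the anoxic arrays alone, equal at 7.26. These fits thus cannot show that the fall is stable across arrays.

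SUT2 (LOC9266530) is the sucrose transporter of the vacuolar membrane in rice. It read 349.0 and 356.3 in air and 600.2 and 489.0 in anoxia, so the groups did not overlap. The log2 difference of 0.62 ± 0.19 (SE; 95% interval 0.11 to 1.13) had an adjusted p of 0.0634. Its second probe set lay between 4.93 and 5.45 on all arrays.

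SUT4 (LOC4331221), a further member of the family that the gene table also lists under SUT2, read 321.3 and 309.1 in air and 186.2 and 179.0 in anoxia. The groups were cleanly apart and the replicates close, at a log2 level of 8.30 ± 0.04 against 7.52 ± 0.04 (SD, n = 2). The difference of -0.78 ± 0.16 (SE; adjusted p = 0.024, 95% interval -1.22 to -0.35) was 1.72-fold and below the required size.

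**Figure D3:**
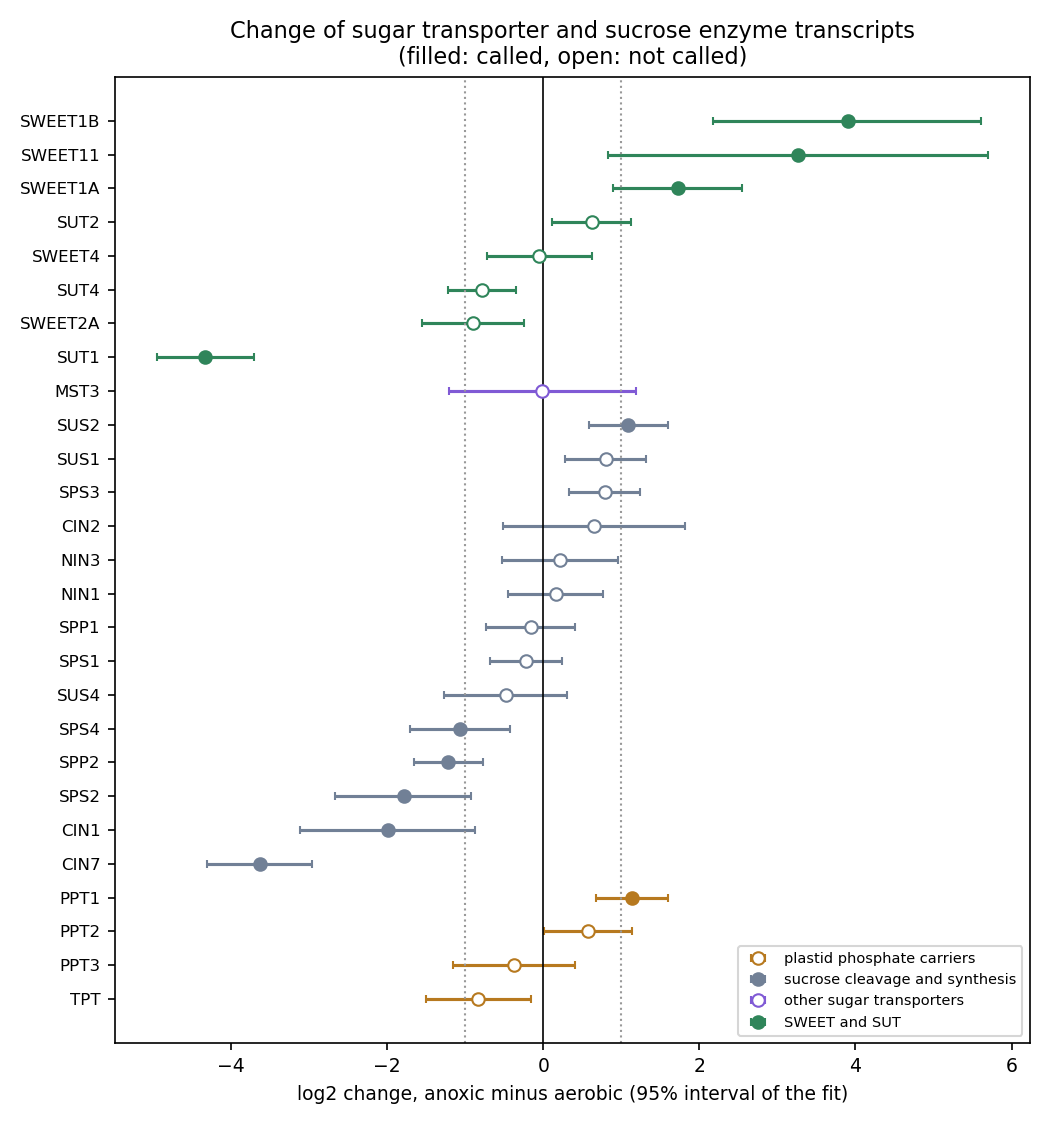
Fitted log2 change, anoxic minus aerobic, with its 95% interval, for the tested SWEET and SUT genes (green), the monosaccharide carrier MST3 (purple), genes of sucrose cleavage and synthesis (grey) and plastid phosphate carriers (brown). Filled points passed the test, open points did not, and dotted lines mark a log2 change of 1. The SWEET and SUT genes range from -4.33 for SUT1 to 3.90 for SWEET1B.

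The remaining 7 genes of the family with a probe set, 6 SWEET and 1 SUT, stayed under 32 on every array. SWEET2B read 9.17 and 18.3 in air and 6.94 and 6.94 in anoxia, again with the higher aerobic value on replicate 2. SWEET5, SWEET12, SWEET15, SWEET16, SUT5 and the gene listed as both SWEET6A and SWEET6B lay between 4.02 and 9.75, and no probe set of these varied by more than 1.12-fold over the 4 arrays. None of these 7 was tested. SWEET3A and SWEET13 had no probe set of their own in the annotation and are not analysed here.

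Among other sugar carriers, 2 genes of the monosaccharide transporter family had a probe set. MST3 (LOC4342198), a proton-coupled monosaccharide importer, read 1859.5 and 2896.7 in air and 3307.5 and 1606.4 in anoxia. Its groups overlapped and the log2 difference was -0.01 ± 0.44 (SE; adjusted p = 0.988, 95% interval -1.21 to 1.19). MST5 lay between 6.93 and 6.96 on all arrays. Over all 9 tested sugar carriers the median log2 change was -0.01, against 0.03 over all tested genes, with 3 higher and 1 lower.

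Genes that make and split sucrose also went both ways. Of 14 tested genes 5 fell and 1 rose, with a median log2 change of -0.19, where 18.0% of all tested genes fell and 15.9% rose. The falls were led by CIN7, also listed as INV1 and an invertase gene, at least 9.75-fold lower (138.9 and 186.5 in air, 13.9 and 10.4 in anoxia; adjusted p = 0.0021), and by CIN1, a cell wall invertase gene (log2 change -1.99 ± 0.42, SE). CIN7 reached the mean level for testing through its aerobic arrays alone and thus had to differ. The rise was that of SUS2, a sucrose synthase gene (1.09 ± 0.19). Of 4 plastid phosphate carriers, too few to read against these shares, 1 rose and 0 fell by limma's call: PPT1, which exchanges phosphoenolpyruvate for phosphate, rose by 1.14 ± 0.17 (SE; adjusted p = 0.0107). TPT, the triose phosphate carrier, had a log2 difference of -0.83 ± 0.25 (SE; adjusted p = 0.0607).

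For each member the 3 genes of most similar course over the 4 arrays were sought among 1828 tested genes with a name, by the Euclidean distance of log2 profiles after removal of each gene's mean. With 4 arrays such likeness is a description. SWEET1A lay nearest to OSH1, a homeobox gene (distance 0.15), OsCyp3 (0.18) and TYW1 (0.27). SWEET1B had no close match, and its nearest genes were the heat shock factor HSFB2A (0.52), the small heat shock gene HSP24.1 (0.80) and Chib3H-h (0.80), which all read highest on anoxic replicate 1. SWEET11 was likewise alone, with the homeobox gene HOX12 at 0.77, a bHLH gene at 0.82 and SAT1 at 1.07. SUT1 had near matches in Os4CL3, a 4-coumarate-CoA ligase gene (0.14), the metallothionein gene MT1A (0.14) and MHX1 (0.15). SUT2 ran with HEMD (0.04), PRMT7 (0.07) and gcs, a glutathione synthesis gene (0.07), and SUT4 with MDAR5, a monodehydroascorbate reductase gene (0.04), MT2A (0.05) and OSH6 (0.05). SWEET2A lay nearest to PAP2 (0.06), TH1 (0.07) and UMPS2 (0.12), and SWEET4 to OsPP2C64 (0.07), OsC3H5 (0.08) and ATG8C, an autophagy gene (0.09).

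**Figure D4:**
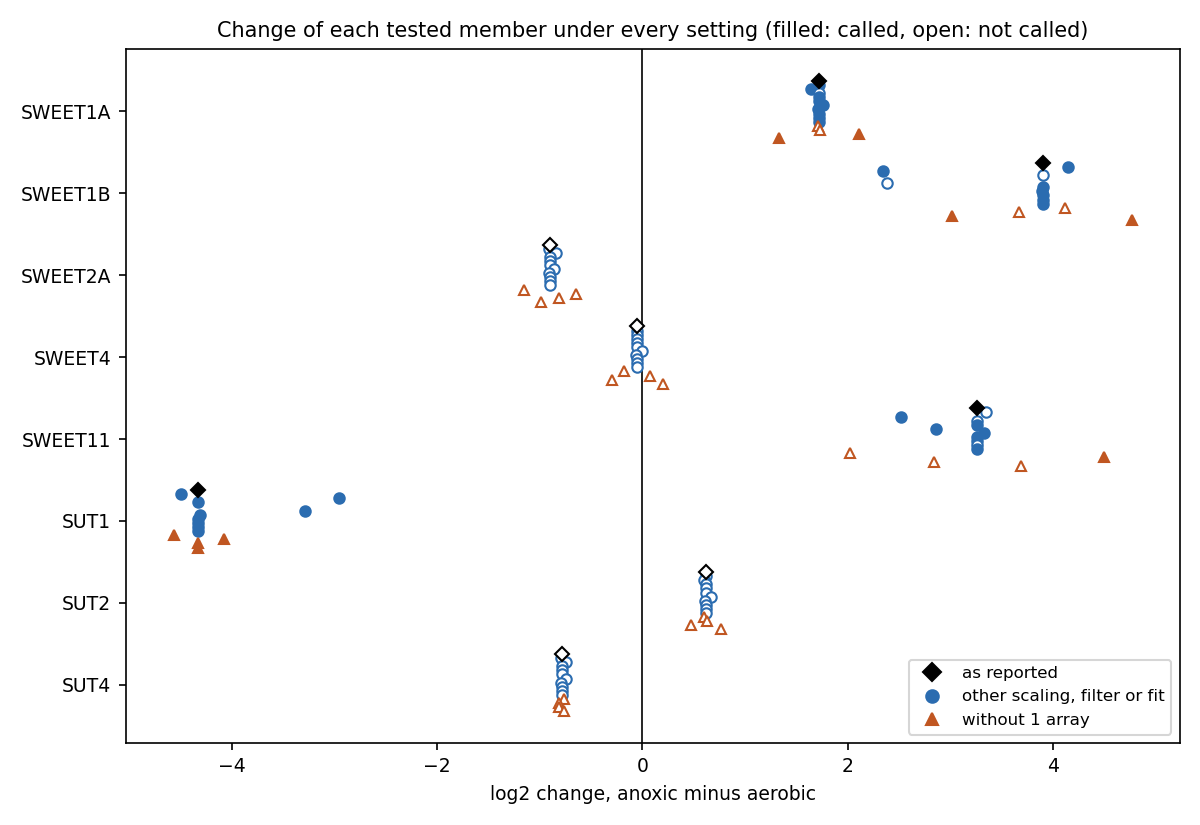
Log2 change of each tested member, anoxic minus aerobic, as reported (black diamond), under other scalings, filters and fits (blue circles) and without 1 array (orange triangles), with filled symbols where the gene passed the test. SUT1 is filled throughout, SWEET1A, SWEET1B and SWEET11 turn open under several settings without a change of sign, and SWEET4 lies on both sides of 0. Except with no filter, SUT1 was tested through its aerobic arrays alone and had to differ.

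Leaf tissue and seed reserves were checked through their genes. Of 9 photosynthesis genes measured, 3 were above the reporter background in any group, and the light-harvesting genes CAB2R, RCABP69 and RCABP89 were at background on all arrays. Their summed intensity was 377.0 to 390.9 in air and 278.1 to 312.3 in anoxia. The brightest probe set shared by several RBCS copies read 320.8 and 248.3 in air and 114.0 and 64.7 in anoxia. Further shared RBCS probe sets fell from 117.6 and 51.4 to 8.0 and 5.6, and from 154.2 and 74.6 to 12.5 and 12.2. A dimmer one fell from 30.5 and 23.4 to 6.0 and 5.0, and another stayed between 5.9 and 6.4. Of 10 storage protein genes 2 were above background, summing to 437.8 to 470.3 in air and 207.3 to 213.9 in anoxia with all 10. Both sums were lower in anoxia, as was SUT1, and each drop came mainly from 1 gene. The shared RBCS probe sets, most of them also lower in anoxia, are not in the sums. Among the photosynthesis genes above background PSAG fell by 1.40 on the log2 scale (adjusted p = 0.00666), while OsrbcS differed by 0.05 (adjusted p = 0.845) and PSAH by 0.47 (adjusted p = 0.0965). Among the storage protein genes GLB fell by 1.68 (adjusted p = 0.00457) and GLUA-2 differed by -0.06 (adjusted p = 0.843). The part of these markers in the results was not tested.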

How the data were processed

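Each of 4 arrays (2 aerobic, 2 anoxic, grouped and numbered by sample title) had 57381 probe sets. The deposited values are normalized intensities on a linear scale, from 2.25 to 18694. Per the labels' list of processing tools the authors made them with GCRMA, with version and settings not given in the sources used here. Array medians lay between 7.36 and 7.55, below the reporter background of 15.6, and so say little about the scale of expressed genes. No scaling was added, and quantile normalization and median centring were run as alternatives. Arrays have no sequencing depth, and their number limits the precision.

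After 187 control probe sets were removed, log2(intensity + 1) was fitted by lmFit and eBayes of limma 3.58.1 (R 4.3.3, 2-sided) for the 18826 probe sets whose mean reached 4. Fits without 1 array left that group with 1 array, assumed to vary like the other. A gene was represented by its brightest single-gene probe set. Where a group mean lay at or below 4.05, the highest of 64 reporter probe sets, the change is an at least N-fold bound. Of the probe sets, 22436 had 1 gene in the platform annotation, 95 several and 34663 none. Names came from symbols and synonyms in the RefSeq table of ASM3414082v1, where all 17905 genes were found. SPP names of signal peptide peptidases were left out of the sucrose list. Steps were tested on simulated data.

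Members and lists were chosen with earlier results of these data known. Named were all SWEET and SUT genes, the other sugar carriers, up to 2 called genes in each direction of the sucrose and plastid lists with the largest change, the 3 genes most like each member, and TPT and the marker genes, picked afterwards. Same-numbered arrays of the groups are not paired by the labels. Alternatives covered the pseudocount, filter, floor, scaling, eBayes trend, replicate block and each array left out.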

Additional observations from a re-analysis of the deposited data

How the results depend on the processing

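SUT1 kept its fall under all 13 alternatives in which it was tested, with log2 changes from -4.57 to -2.96. With no filter its adjusted p was 0.0328 (limma). In the other alternatives SUT1 was tested through its aerobic arrays alone and thus had to differ, so they cannot test the fall. SUT1 and SWEET1B were too dim to be tested with a mean of at least 6, where 0 members and 0 sugar carriers were called lower (limma). In that fit SWEET2A and SUT4 were lower at adjusted p of 0.0325 and 0.0194 (limma) but missed the required size. With no filter 57194 probe sets were tested, 738 were called higher and 971 lower, and the calls of SWEET1A (1.72), SWEET1B (3.90) and SWEET11 (3.26) were lost, which left 0 members and 0 sugar carriers called higher (limma, 3 of each at an unadjusted p under 0.05). With a mean of at least 6, 1934 and 1895 of 11354 probe sets were called higher and lower, against 3015 and 3021 of 18826. SWEET11 lost its call with no pseudocount (3.35), and SWEET1B with values under 16 set to 16 (2.38). SWEET4, never called, changed sign, at 0.00 with quantile normalization.

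Leaving out 1 array, SWEET1A ranged from 1.33 to 2.11, SWEET1B from 3.02 to 4.77, SWEET11 from 2.02 to 4.50 and SWEET4 from -0.30 to 0.20. Members called higher numbered 0 to 2, as did sugar carriers, while probe sets called higher numbered 692 to 2092 and lower 1186 to 2262. The 0 was reached without aerobic replicate 1 (limma, 3 of each at an unadjusted p under 0.05), and only 1 was called without aerobic replicate 2. Fits without 1 array took their spread from the group that kept both arrays, and the cause of these changes was not tested.

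With the replicate block SWEET11 lost its call (3.26, adjusted p = 0.067), no other call of a member changed, and 5556 probe sets were called against 6036. Differences between replicates correlated at -0.14 between the groups across probe sets. A crossed pairing, added after the data were seen, called 6467 probe sets, 3 members higher and 1 lower. No member or sugar carrier had a second tested probe set, so no gene's probe sets could be averaged or exchanged.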

Other observations

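The gap between the aerobic arrays seen for SWEET11 and SWEET14 occurred in other genes. Aerobic replicate 2 exceeded aerobic replicate 1 at least 4-fold for 98 of 18826 tested probe sets (0.521%), and the reverse held for 4 probe sets. The 3 genes closest in course to SWEET14 were Cht4, a chitinase gene (distance 0.23), the small heat shock gene HSP17.9B (0.24) and JAMYB, a jasmonate-related MYB gene (0.36). Cht4 read 18.0 and 82.9 in air and 12.3 and 12.2 in anoxia. HSP17.9B read 11.8 and 66.0 in air and 9.31 and 8.74 in anoxia. JAMYB read 22.6 and 98.7 in air and 21.8 and 15.1 in anoxia.

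Anoxic replicate 1 exceeded anoxic replicate 2 at least 2-fold for 949 tested probe sets (5.04%), among them that of SWEET1B, and the reverse held for 224 (1.19%).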
